A study of Mus musculus with 5 samples.

Results

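Epithelial-mesenchymal transition (EMT) is the process by which epithelial cells loosen their junctions and take on migratory, mesenchymal traits, and keratinocytes at a wound edge pass through a partial and reversible form of it. The process is driven by a small set of transcription factors. SNAI1, SNAI2, ZEB1 and ZEB2 are zinc finger repressors that bind E-box sequences in promoters such as that of *Cdh1*, TWIST1 and TWIST2 are basic helix-loop-helix factors, and PRRX1 is a homeodomain factor of mesenchyme. Downstream stand E-cadherin (*Cdh1*), the adhesion molecule of epithelial junctions, N-cadherin (*Cdh2*), its mesenchymal counterpart, and vimentin (*Vim*), an intermediate filament protein of mesenchymal and migrating cells. SOX11 and SOX4 are related SOXC transcription factors that bend DNA through an HMG box, which recognises a short core read as CATTGT or CTTTGT.

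These 10 genes were examined in 2 lists of ChIP-seq peaks, 1 for SOX11-FLAG and 1 for SOX4-FLAG, to find where both factors were bound around them. A peak belonged to a gene when its centre lay in the gene body or within 10 kb of it, or when its nearest protein-coding transcription start was that of the gene, at any distance. By this rule the 10 genes, of 22380 protein-coding genes in the annotation, held 33 of 21270 SOX11 peaks and 3 of 2669 SOX4 peaks. No peak belonged to more than 1 of them.

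The cells were primary keratinocytes of newborn mice with the genotype Krt14-Cre;Sox11fl/fl;Sox4fl/fl, in which the keratin 14 promoter drives Cre and both *Sox11* and *Sox4* are deleted. All libraries shared this genotype. The labels give the strain as mixed 129SvEx:C57BL/6, and per the methods the floxed line of that background was crossed with Krt14-Cre mice of FVB/N. The floxed founders also carried a deletion of *Sox12*, and the *Sox12* genotype of the cells is not given in the sources used here. The cells carried a lentivirus with a doxycycline-inducible, FLAG-tagged *Sox11* or *Sox4* and were treated with doxycycline for a day, so the lists describe binding of an introduced protein. There were 2 replicates of SOX11-FLAG, 2 of SOX4-FLAG and 1 control, called input in its title and IgG in its antibody field, which has no list here. Each list was made by the authors from both replicates and gives only the chromosome, start and end of a peak in mm9. The depth behind a peak is therefore unknown, no spread between replicates can be given, and no test over replicates was possible. Shares carry 95% Wilson intervals, which cover counting error over peaks alone, and peaks of 1 gene are not independent of each other. Expression was not analysed here, so the cell type could not be checked against its markers.

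The sequences below show, for each gene that had one, the earliest SOX11 peak of the list with a SOX core, taking peaks that overlapped a SOX4 peak first. Peaks that reach into untranslated exons and those of *Zeb1* and *Cdh2* are not shown, and neither *Prrx1* peak had a core. Letters are from the plus strand of mm9, 5′ to 3′. Capitals mark the SOX core (CATTGT or CTTTGT, on the other strand ACAATG or ACAAAG) and the AP-1 core (TGAGTCA or TGACTCA, the reverse complements of each other). They also mark the E-box of SNAI and ZEB factors (CACCTG or CAGGTG). Other E-box sequences were not searched.
*Snai1*, chr2:167378658-167378915: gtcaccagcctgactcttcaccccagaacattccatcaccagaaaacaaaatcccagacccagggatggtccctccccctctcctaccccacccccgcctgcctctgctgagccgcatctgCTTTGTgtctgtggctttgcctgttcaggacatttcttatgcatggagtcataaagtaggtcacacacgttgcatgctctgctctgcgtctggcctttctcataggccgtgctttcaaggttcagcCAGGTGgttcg
*Snai2*, chr16:14800427-14800684: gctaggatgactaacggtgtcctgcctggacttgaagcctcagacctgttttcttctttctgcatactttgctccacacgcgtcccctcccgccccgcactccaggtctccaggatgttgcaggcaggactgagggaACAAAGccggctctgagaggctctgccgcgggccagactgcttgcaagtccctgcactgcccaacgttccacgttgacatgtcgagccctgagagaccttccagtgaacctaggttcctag
*Zeb2*, chr2:45877428-45877685: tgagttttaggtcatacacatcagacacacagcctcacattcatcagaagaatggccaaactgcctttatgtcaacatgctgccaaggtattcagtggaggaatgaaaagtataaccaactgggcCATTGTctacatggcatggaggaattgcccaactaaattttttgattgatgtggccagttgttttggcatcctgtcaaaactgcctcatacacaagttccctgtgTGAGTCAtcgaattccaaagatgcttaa
*Twist1*, chr12:34725830-34726087: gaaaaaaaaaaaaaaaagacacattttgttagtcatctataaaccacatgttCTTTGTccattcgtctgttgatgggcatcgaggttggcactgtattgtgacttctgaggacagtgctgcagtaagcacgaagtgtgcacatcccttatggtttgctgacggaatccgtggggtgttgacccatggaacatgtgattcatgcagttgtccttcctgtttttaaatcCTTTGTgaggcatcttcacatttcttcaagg
*Twist2*, chr1:93713329-93713586: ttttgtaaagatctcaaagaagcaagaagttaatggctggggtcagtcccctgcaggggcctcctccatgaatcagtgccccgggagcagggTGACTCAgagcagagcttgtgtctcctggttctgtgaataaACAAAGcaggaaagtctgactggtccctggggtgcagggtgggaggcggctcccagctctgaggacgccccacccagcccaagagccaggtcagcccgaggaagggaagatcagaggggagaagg
*Cdh1*, chr8:109143417-109143674: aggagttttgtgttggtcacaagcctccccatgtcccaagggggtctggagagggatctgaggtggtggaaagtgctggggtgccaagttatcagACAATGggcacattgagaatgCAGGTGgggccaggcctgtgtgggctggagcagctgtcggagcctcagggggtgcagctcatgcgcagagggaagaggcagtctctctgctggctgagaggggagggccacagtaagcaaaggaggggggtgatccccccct
*Vim*, chr2:13495106-13495363: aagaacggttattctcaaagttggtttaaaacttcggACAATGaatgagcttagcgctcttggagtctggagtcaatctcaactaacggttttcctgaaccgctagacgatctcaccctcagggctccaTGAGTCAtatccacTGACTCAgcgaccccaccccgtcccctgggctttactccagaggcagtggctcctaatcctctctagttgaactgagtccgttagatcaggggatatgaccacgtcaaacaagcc

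Each of these peaks is 258 bases wide, the common width of the SOX11 list. The *Snai2* peak has 1 SOX core close to its centre and no AP-1 core or E-box. In the *Twist1* peak 2 copies of CTTTGT stand on either side of the centre. The *Zeb2* peak pairs a CATTGT at the centre with a distant TGAGTCA, and the *Twist2* peak pairs ACAAAG with TGACTCA 34 bases apart. The *Cdh1* peak holds ACAATG followed by the E-box CAGGTG, and the *Snai1* peak has a CTTTGT near its centre and a CAGGTG at its edge. The *Vim* peak, in the promoter, has a pair of AP-1 cores at its centre and an ACAATG 88.5 bp away from the centre.

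All 10 genes had a SOX11 peak by the rule, against a background of 57% of protein-coding genes. *Snai2*, *Twist1* and *Cdh1*, 3 of the 10, also had a SOX4 peak, against a background of 13%, or of 12.8% for genes with both factors. By the nearest start alone the counts were again 10 and 3, against backgrounds of 46.6% and 10.1%. The median number of SOX11 peaks was 3 over the 10 genes and 1 over all protein-coding genes, and the median number of SOX4 peaks was 0 over both. The background depends on length. Where the gene with 10 kb on each side spans under 50 kb, as at *Snai1*, *Snai2*, *Twist1* and *Vim*, 49.7% of genes had a SOX11 peak and 9.99% a SOX4 peak. It was 70.3% and 16.6% for spans of 50 to 100 kb (*Twist2*, *Prrx1*, *Cdh1*) and 74.2% and 22.5% for longer ones (*Zeb1*, *Zeb2*, *Cdh2*).

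The rule brings in distant peaks, and most of the 33 were of that kind. The gene body with 10 kb around it held 13 of them, and 20 were assigned through the nearest start alone. Within the body and 10 kb, 7 of the 10 genes had a SOX11 peak, against a background of 50.7%, and 1, *Cdh1*, had a SOX4 peak, against 10.2%. *Snai2*, *Twist1* and *Zeb1* had SOX11 peaks only beyond that distance. Of the 9 SOX11 peaks of the cadherins and *Vim* all 9 lay in the body or within 10 kb, and of the 24 peaks of the transcription factors 4 did. Of the 20 peaks assigned through the nearest start alone, 10 were at *Zeb2*. The gene with 10 kb on each side also differs in length, from 22.1 kb at *Twist1* to 240 kb at *Cdh2*. The share of all SOX11 peaks in or within 10 kb of a gene is not given here, and the contrast was not tested.

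**Figure D1:**
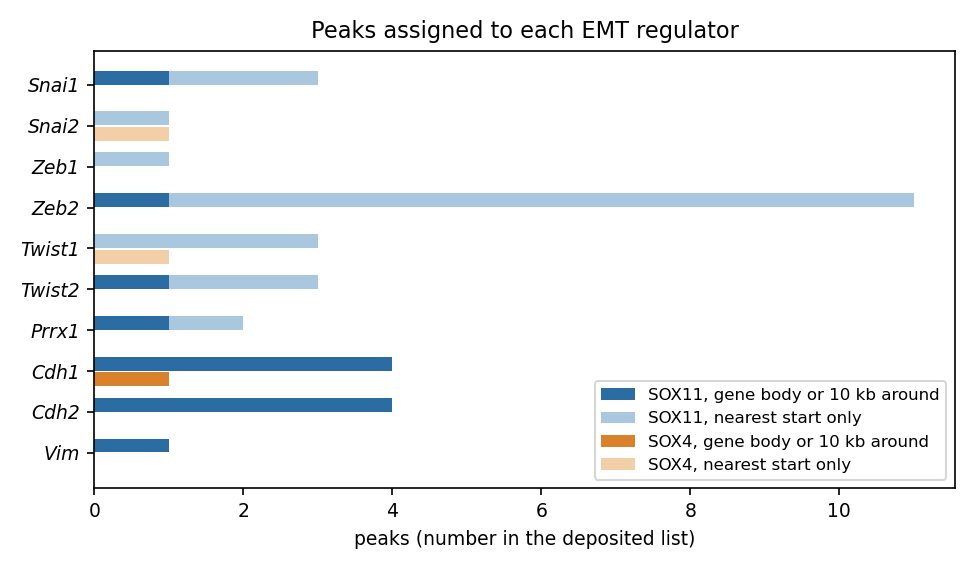
Number of peaks assigned to each gene, on the horizontal axis, with SOX11 in blue and SOX4 in orange, and with peaks assigned through the nearest start alone in the pale shade. *Zeb2* has 11 SOX11 peaks, of which 10 are pale, and the other genes have 1 to 4.

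*Snai1* (ENSMUSG00000042821.7, chromosome 2, 167363695 to 167368314, plus strand) encodes the factor that gave the family its name. It had 3 SOX11 peaks and no SOX4 peak, and all 3 lay downstream of the gene. Distances here and below run from the start of the longest coding transcript of the gene to the centre of the peak. The peak from 167368767 to 167369024 was 5.20 kb from the start and 0.581 kb past the end of the gene, was number 9179 of the list and had none of the motifs searched. The peak shown above, at 15.1 kb, was number 1168 and held a SOX core 4.5 bp from its centre. The peak from 167395893 to 167396150, at 32.3 kb, was number 2809 and held a SOX core, an AP-1 core and the TEAD core GGAATG, which TEAD factors of the Hippo pathway bind. The 2 peaks with a SOX core were thus the distant ones, and they stood earlier in the list than the one next to the gene. The centre of the peak at 15.1 kb was 0.028 kb from the start of a non-coding transcript, Gm11476. The *Snai1* start is the nearest protein-coding start over only 53.6 kb, between *Rnf114* and *Ube2v1*. The 3 peaks in this short stretch make 56.0 SOX11 peaks per Mb, against 8.06 per Mb over the 20 chromosomes with peaks. By count, 14.5% of all protein-coding genes had as many SOX11 peaks or more.

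*Snai2* (ENSMUSG00000022676.6, chromosome 16, 14705945 to 14709488, plus strand) encodes SLUG, which is expressed in basal keratinocytes and needed for their migration in wounds. It had 1 SOX11 peak and 1 SOX4 peak, and they were the same site. The SOX11 peak, from 14800427 to 14800684, was number 75 of 21270, and the SOX4 peak, from 14800375 to 14800714, was number 118 of 2669. No other peak of the 10 genes stood so early in either list. The site lay between protein-coding genes, 94.6 kb downstream of the *Snai2* start and on the same side as *Efcab1*, whose start is 201 kb from that of *Snai2*. The start of a non-coding U6 snRNA gene was nearer, 6.81 kb from the centre of the SOX11 peak. When starts of genes of every biotype competed, *Snai2* had 0 SOX11 and 0 SOX4 peaks. Its only SOX core, ACAAAG, was 11.5 bp from the centre of the SOX11 peak. Neither list had a peak in the gene or within 10 kb of it.

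*Zeb1* (ENSMUSG00000024238.5, chromosome 18, 5591858 to 5775465, plus strand) had 1 SOX11 peak and no SOX4 peak. The SOX11 peak, from 5819809 to 5820066, lay 44.5 kb past the end of the gene, was number 15342 of the list and had none of the motifs searched. Neither list thus had a peak within the 184 kb of the gene.

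*Zeb2* (ENSMUSG00000026872.8, chromosome 2, 44839154 to 44972915, minus strand) had 11 SOX11 peaks and no SOX4 peak. Of all protein-coding genes, 90, or 0.402%, had as many SOX11 peaks or more. Only 1 of the 11 was at the gene: the peak from 44965723 to 44965980, number 7786 of the list, lay in intron 1 of the longest coding transcript, 2.95 kb from its start and 46 bp from an alternative start, and it held a SOX core 5.5 bp from its centre, an AP-1 core and a TEAD core. The other 10 lay upstream, between 542 and 1399.6 kb from the start, in a gene-poor stretch that reaches to *Acvr2a*, whose start is 3697 kb from that of *Zeb2*. Of these, 8 were over 1 Mb away and stood within 313 kb of each other. The closest pair, numbers 7099 and 7100 of the list, had centres 778 bp apart.

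The 11 peaks did not all look alike in sequence. A SOX core was present in 9 of them and an AP-1 core in 7, and 6 held both. The exceptions without a SOX core were the peak number 7099, from 46298649 to 46298906, which had an AP-1 core 16 bp from its centre, and the peak number 12480, from 46346671 to 46346928, which had none of the motifs searched. In the list, the earliest of the 10 distant peaks was number 2486 and the latest number 14673. Over the stretch in which the *Zeb2* start is the nearest protein-coding one, 1947 kb, there were 5.65 SOX11 peaks per Mb, below the 8.06 per Mb of the genome. Only *Cdh2*, of the 9 genes for which it could be computed, had a lower value. Starts of non-coding genes and pseudogenes were nearer to all 10 distant peaks than that of *Zeb2*, at distances from 0.547 kb (Gm13470) to 213 kb.

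*Twist1* (ENSMUSG00000035799.5, chromosome 12, 34642536 to 34644682, plus strand) had 3 SOX11 peaks and 1 SOX4 peak, all downstream on the side of *Hdac9*. The peak at 83.4 kb, from 34725830 to 34726087, was number 2723 of the SOX11 list and overlapped the SOX4 peak from 34725804 to 34726143, number 1850 of 2669. The peaks at 23.9 kb (34666340 to 34666597) and at 119 kb (34761020 to 34761277) were numbers 19828 and 19829, among the last of the list, and overlapped no SOX4 peak. The nearer of them held 3 SOX cores and an AP-1 core 21 bp from one of these. The farther one, in an intron of *Hdac9*, held 2 AP-1 cores and no SOX core. The 3 sites thus differed in motif content, and the site shared with SOX4 stood much earlier in the list than the others.

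*Twist2* (ENSMUSG00000007805.3, chromosome 1, 93698038 to 93744605, plus strand) had 3 SOX11 peaks and no SOX4 peak. The peak from 93713329 to 93713586, number 10855, lay 15.4 kb from the start in the single large intron of the gene. The others lay 46.2 kb upstream (93651662 to 93651919, number 11737) and 108 kb upstream (93589585 to 93589842, number 15762). Each of the 3 had at least 1 SOX core, and an AP-1 core was found in the intronic peak alone. The next site upstream, 137 kb from the gene, was a SOX11 peak that overlapped a SOX4 peak, and it was left out because its centre was 124 kb from the start of *Asb1* and thus nearer to that gene.

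*Prrx1* (ENSMUSG00000026586.8, chromosome 1, 165175247 to 165243841, minus strand) had 2 SOX11 peaks and no SOX4 peak, both late in the list. The peak from 165183091 to 165183348, number 18782, lay in intron 3 of the longest coding transcript and in an untranslated exon of another transcript, 60.6 kb from the start. The peak from 165128178 to 165128435, number 19627, lay 46.9 kb past the end of the gene. Neither had any of the motifs searched. With the *Zeb1* peak, the peak beside *Snai1* and *Zeb2* peak number 12480, they made up the 5 of 33 SOX11 peaks with neither a SOX nor an AP-1 core.

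**Figure D2:**
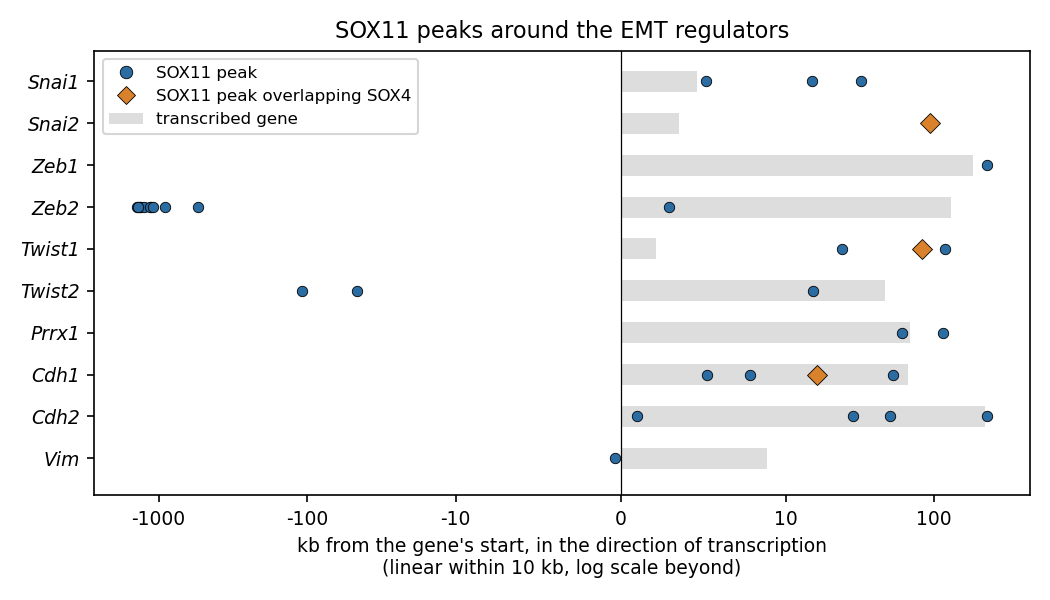
Distance of each SOX11 peak from the start of the longest coding transcript, in kb along the direction of transcription (linear within 10 kb, log scale beyond), with the transcribed gene as a grey bar and peaks that overlap a SOX4 peak as orange diamonds. The 10 distant *Zeb2* peaks stand between 542 and 1399.6 kb upstream, and the *Snai1*, *Snai2* and *Twist1* peaks all lie downstream of their genes.

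*Cdh1* (ENSMUSG00000000303.6, chromosome 8, 109127251 to 109194146, plus strand) had 4 SOX11 peaks and 1 SOX4 peak, and all of them lay inside the gene. Of all protein-coding genes, 7.74% had as many SOX11 peaks or more. The stretch of 55.3 kb in which the *Cdh1* start is the nearest protein-coding one held 3 of the 4, or 54.3 per Mb. Apart from *Snai1*, the other genes for which this density could be computed had 2.07 to 15.4 per Mb. Intron 2, the 44.6 kb intron of this gene, held 3 of the SOX11 peaks. They lay 5.22 kb (109132338 to 109132595, number 5201), 7.85 kb (109134974 to 109135231, number 3479) and 16.3 kb (109143417 to 109143674, number 1479) from the start, and each had 1 SOX core. The last of these overlapped the SOX4 peak from 109143386 to 109143725, number 991 of its list, and was the earliest of the gene in the SOX11 list. An E-box was found in 2 of these 3 peaks, the peaks at 5.22 and 16.3 kb, and an AP-1 core in none. The SOX4 peak is wider than the SOX11 peak at the same site, and its TGACTCA lay 157 bp from its centre, outside the SOX11 peak.

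The remaining *Cdh1* peak, from 109180036 to 109180293, was number 5272 and lay in intron 5, 52.9 kb from the start. It was in the *Cdh1* window alone, since the start of *Tmco7* was nearer, at 26.8 kb. It was the only *Cdh1* SOX11 peak with an AP-1 core, which was 1 bp from its centre and 22 bp from its SOX core. Neither list had a peak within 1 kb of the *Cdh1* start.

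*Cdh2* (ENSMUSG00000024304.8, chromosome 18, 16747386 to 16967755, minus strand) also had 4 SOX11 peaks, with no SOX4 peak. The peak from 16966623 to 16966880, number 4890, lay 1.00 kb from the start of the longest coding transcript and 0.220 kb downstream of another start, in intron 1. It had the highest GC content of the 33, 71.7%. The peak from 16939162 to 16939419, number 10678, also lay in intron 1 at 28.5 kb, the peak from 16917428 to 16917685, number 15343, in intron 2 at 50.2 kb, and the peak from 16739344 to 16739601, number 18584, 7.91 kb past the end of the gene. All 4 had a SOX core, and both peaks in the middle also had an AP-1 core and at least 1 E-box. Like *Zeb2*, *Cdh2* stands alone in a gene-poor stretch, where its start is the nearest protein-coding one over 1933 kb. Unlike *Zeb2*, it had no peak farther than 10 kb from the gene body, and the stretch held 2.07 SOX11 peaks per Mb against 5.65 at *Zeb2*.

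*Vim* (ENSMUSG00000026728.3, chromosome 2, 13495554 to 13504453, plus strand) had 1 SOX11 peak and no SOX4 peak. The peak, from 13495106 to 13495363, was number 5456 and lay in the promoter, centred 0.345 kb upstream of the start of the longest coding transcript. Its AP-1 cores were 4 and 18 bp from its centre. It was 1 of 3 SOX11 peaks within 1 kb of any annotated start of its gene, with those of *Zeb2* and *Cdh2*.

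Placed by their centres, 2 of the 33 SOX11 peaks lay in promoters, taken as the stretch from 1 kb before to 100 bp after a start, which is 6.06% (interval 1.68 to 19.6%), against 23.3% of all SOX11 peaks. Without the *Zeb2* peaks it was 4.55% (interval 0.807 to 21.8%). Another 9 lay in introns, 1 in an exon and 21 between genes, or 63.6% (interval 46.6 to 77.8%) against 40.0% of all SOX11 peaks. Of those between genes 10 were at *Zeb2*, and without its peaks the share was 50% (interval 30.7 to 69.3%), which covers the value of the whole list. The median distance to the nearest protein-coding start was 83.4 kb for the 33 peaks, 30.0 kb without those of *Zeb2* and 11.5 kb for the whole list. Over 100 kb from any protein-coding start lay 13 of the 33, or 39.4%, against 11.7% of the whole list. Again 10 of these were at *Zeb2*, and without its peaks 3 of 22 remained, 13.6% (interval 4.75 to 33.3%). The median number of other SOX11 peaks within 25 kb was 0, with a maximum of 2, and 1 in the whole list.

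The overlap with SOX4 was close to that of the whole list. Of the 33 SOX11 peaks 3 overlapped a SOX4 peak, 9.09% (interval 3.14 to 23.6%), against a background of 11.9%. All 3 SOX4 peaks overlapped a SOX11 peak, against 94.5% of all SOX4 peaks. The shared sites, at *Snai2*, *Cdh1* and *Twist1*, were numbers 75, 1479 and 2723 of the SOX11 list, and the 30 others stood between numbers 1168 and 19829 with a median of 9621. In the whole list the share that overlapped SOX4 fell from 55.1% in its first eighth to 2.11% in its last, and the first eighth held 4 of the 33 peaks. The median position of the 33 was 7890, and 9928.5 without those of *Zeb2*, against 10635.5 for the list.

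**Figure D3:**
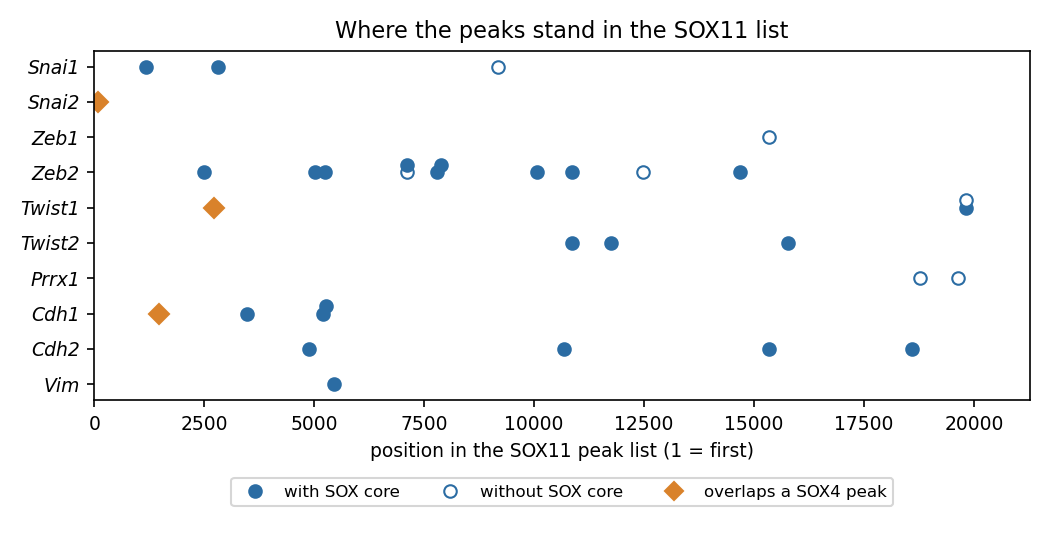
Position of each SOX11 peak in the deposited list, on the horizontal axis, for each gene, with open circles for peaks without a SOX core and orange diamonds for peaks that overlap a SOX4 peak (points that would cover another are shifted up). The 3 diamonds stand at 75, 1479 and 2723, and both *Prrx1* peaks stand late, at 18782 and 19627.

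Of the 33 SOX11 peaks 26 held a SOX core, 78.8% (interval 62.2 to 89.3%), against a background of 58.5% of all SOX11 peaks. Without the *Zeb2* peaks it was 77.3% (interval 56.6 to 89.9%), which covers the background. In sequences of equal width 2 kb downstream it was found in 36.4% (interval 22.2 to 53.4%) at the 33 peaks and in 32.2% for the whole list. There were 32 copies, 22 of them read as CTTTGT, at a median of 44 bp from the centre against 27.5 bp in the whole list. In the whole list the core was rarer in promoters, at 38.1%, where 2 of the 33 lay. Among peaks outside promoters the core was found in 77.4% of 31 (interval 60.2 to 88.6%) and in 64.7% of all, a value within the interval. With the longer 10-letter SOX motif and 1 mismatch the share was 45.5% at the 33 peaks and 47.3% in the whole list, so the higher share held for the short core and not for the longer motif.

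The AP-1 core, the site of FOS and JUN dimers, stood in 15 of these 33 peaks, 45.5% (interval 29.8 to 62.0%), against a background of 28.5%. It was found in 0 of the 33 sequences 2 kb downstream (interval 0 to 10.4%), against 4.59% for the whole list. The *Zeb2* peaks carried much of the share: without them it was 36.4% (interval 19.7 to 57.0%), which covers the background. Outside promoters it was 41.9% (interval 26.4 to 59.2%) against 35.3% of all. The longer AP-1 motif with 1 mismatch gave 66.7% against 41.1%. SOX and AP-1 cores stood together in 13 of the 33 peaks, 39.4% (interval 24.7 to 56.3%), against 17.2% of the whole list. Without those of *Zeb2* it was 31.8% (interval 16.4 to 52.7%), which covers the value of the whole list. The AP-1 core stood in only 6.27% of all SOX11 peaks in promoters, and the share of the pair outside promoters is not given here. Within these 13 peaks the bases between the nearest SOX and AP-1 cores numbered 21 to 143, with a median of 64.

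The E-box of SNAI and ZEB factors stood in 8 of these 33 peaks, 24.2% (interval 12.8 to 41.0%), against a background of 20.8%. In the sequences 2 kb downstream it was found in 9.09% (interval 3.14 to 23.6%) at the 33 peaks and in 17.8% for the whole list. Without the *Zeb2* peaks the downstream share was 13.6% (interval 4.75 to 33.3%). The 8 peaks with an E-box were 3 of *Zeb2*, 2 of *Cdh1*, 2 of *Cdh2* and 1 of *Snai1*, and each also held a SOX core. In the whole list 2550 of 4426 peaks with an E-box held a SOX core. Both motifs together thus stood in 24.2% of the 33 peaks, against 12.0% of the whole list. Without the *Zeb2* peaks it was 22.7% (interval 10.1 to 43.4%), which covers the value of the whole list. In 2 peaks, or 6.06%, the whole E-box lay within 50 bp of the centre, against 8.73% of all SOX11 peaks. The TEAD core stood in 6 peaks, 18.2% (interval 8.61 to 34.4%), against a background of 22.8%. Of these 6, 2 each were at *Snai1* and *Zeb2* and 1 each at *Twist1* and *Cdh1*. The longer TEAD motif with 1 mismatch gave 30.3% (interval 17.4 to 47.3%) against 20.3% of all SOX11 peaks, a value within the interval. The backgrounds of the E-box, 20.8%, and of the TEAD core, 22.8%, lay within the intervals of their shares at the 33 peaks.

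The 3 SOX4 peaks all held a SOX core, against a background of 80.6% of SOX4 peaks, and the sequence 2 kb downstream of each held none, against 41.2%. An AP-1 core stood in 2 of them, at *Twist1* and *Cdh1*, against 26.1%, and in 0 of the 3 sequences 2 kb downstream, against 5.92%. Both of these AP-1 cores lay outside the narrower SOX11 peak at the same site. With 3 peaks, no share of SOX4 peaks can be compared with the whole list.

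**Figure D4:**
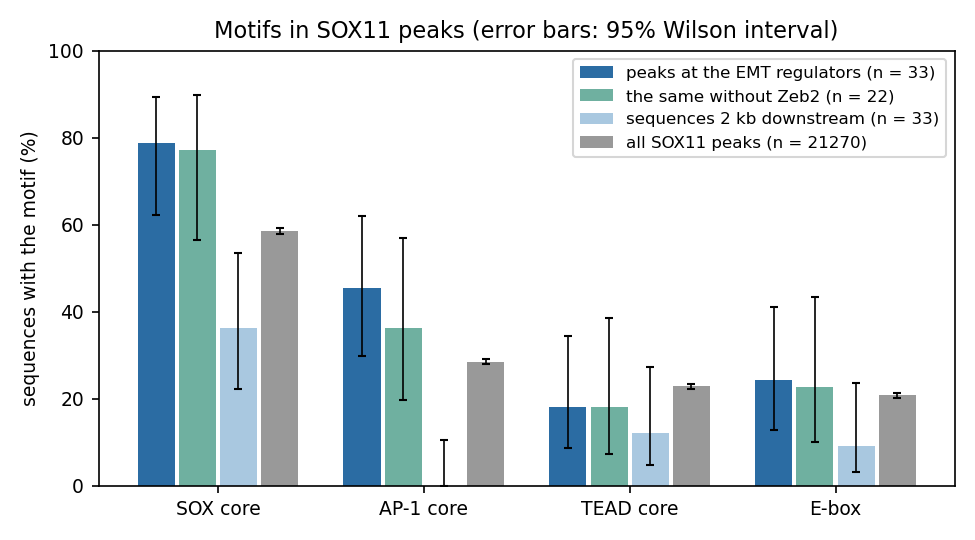
Share of sequences with each motif, in percent, in the 33 SOX11 peaks, the 22 that are not at *Zeb2*, the sequences 2 kb downstream of the 33 and all 21270 SOX11 peaks, with 95% Wilson intervals as error bars. The SOX core reaches 78.8% at the 33 peaks and the AP-1 core 45.5%, against 58.5% and 28.5% of all SOX11 peaks.

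**Figure D5:**
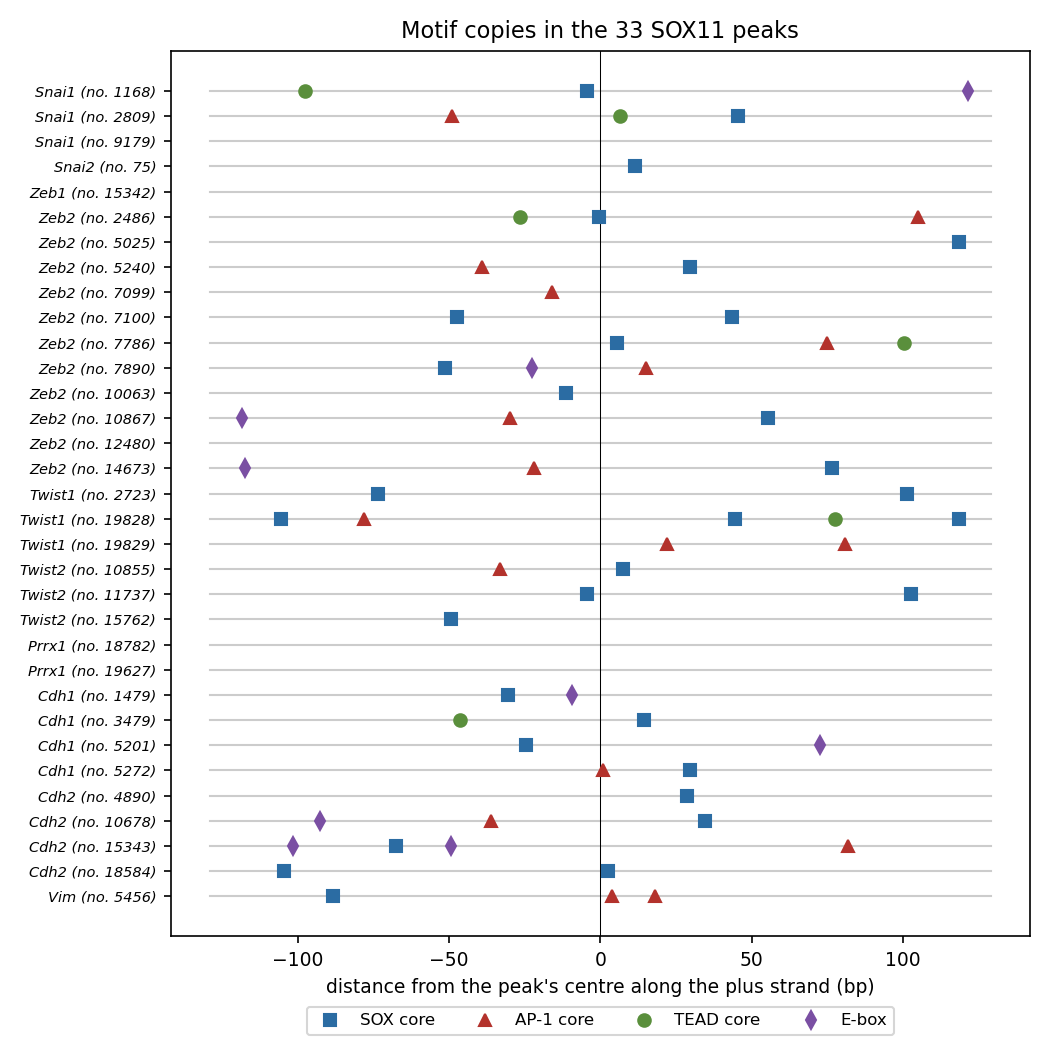
Copies of each motif in the 33 SOX11 peaks, 1 row per peak with its number in the list, by distance from the centre of the peak in bp along the plus strand. SOX and AP-1 cores stand together in 13 rows, and 5 rows have neither.

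Other genes of the transition were counted by the same rule, and those named had the most SOX11 and SOX4 peaks together in their group. Of 55 such genes 47 had a SOX11 peak, or 85.5%, and 23 a SOX4 peak, or 41.8%, against backgrounds of 57% and 13%, and the median number of SOX11 peaks was 3. Among 11 other transcription factors 8 had a SOX11 peak and 5 a SOX4 peak, led by *Sox9* (7 SOX11 and 1 SOX4) and the forkhead gene *Foxc2* (6 and 2). Among 10 factors that keep the epithelial state 8 had a SOX11 peak and 1 a SOX4 peak. The most were at *Klf4*, a differentiation factor of the epidermis, with 11 SOX11 peaks and no SOX4 peak, and *Grhl2*, an activator of epithelial junction genes, with 8 and 1. All 10 genes of epithelial adhesion had a SOX11 peak and 7 a SOX4 peak, with the highest sums of both at *Ctnnb1* (β-catenin, 11 and 2) and, tied with the tight junction gene *Tjp1* (6 and 1), *Ctnnd1* (p120 catenin, 4 and 3).

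Among 12 mesenchymal and matrix genes 9 had a SOX11 peak and 3 a SOX4 peak, with the most at *Tnc*, the matrix protein tenascin C of healing wounds (13 and 1), and *Itgb1*, integrin β1 (5 and 2). All 12 signalling genes had a SOX11 peak and 7 a SOX4 peak, with the most at the TGF-β receptor gene *Tgfbr2* (15 and 2) and *Smad3* (7 and 2). The share of genes with a SOX4 peak ranged from 10% for the epithelial factors to 70% for epithelial adhesion, and 30% of the 10 EMT regulators had one. These counts include distant peaks assigned through the nearest start. Within the body and 10 kb, *Klf4*, *Sox9* and *Foxc2* had 0 SOX11 peaks, and *Tjp1* and *Itgb1* had 1 each. *Ctnnd1* and *Tnc* had 2 each there, *Ctnnb1* and *Tgfbr2* 3 each, *Smad3* 4 and *Grhl2* 6. The shares of genes with a peak in that window are not given here for these groups. These lists differ in gene length and in the spacing of their neighbours, and their differences were not tested.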

How the data were processed

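The data were 2 deposited peak lists of ChIP-seq in mouse keratinocytes. Per the paper's methods and the submitters' processing notes, the authors mapped single-end reads to mm9 with Bowtie2 at default settings, discarded non-nuclear, unmapped and low-quality reads, removed duplicates (Picard MarkDuplicates), ran HOMER findPeaks in factor style and subtracted blacklisted regions with bedtools, with versions not given in the sources used here. The deposited values are another kind of quantity than counts or signal: the start and end of each peak, with both replicates of a factor in 1 list and no height, score or p-value. A summit is not given, so the centre of a peak stands for it, and peaks of a fixed width limit how finely a site is placed.

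The start column was taken as counted from 0 and is printed counted from 1. Genes came from the GENCODE M1 annotation of NCBIM37, the assembly of mm9, and 0 peaks reached past the end of their chromosome. Overlaps needed 1 bp. Exact matches of each core were sought on either strand over the full width of a peak and of the sequence 2 kb downstream, which was not matched for GC content (median 43.8% at the 33 peaks, which themselves had 48.1%). The longer motifs of SOX, AP-1 and TEAD factors have 10 letters, some of them ambiguous, and were allowed 1 mismatch. Python 3.11.15, numpy 2.4.6, scipy 1.17.1, pysam 0.24.0, samtools 1.23.1, bedtools 2.31.1 and matplotlib 3.10.9 were used. The overlap, the nearest start, the assignment rule and the motif search were tested on simulated data.

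No test was run, since replicates are pooled and peaks are not replicates. The genes and lists were chosen with earlier results of these data known. Named are the 10 genes, the 2 genes of each role with most peaks in the wider list (ties by symbol) and genes whose start is nearest to a peak in the window of 1 of the 10, and, chosen after their values were seen, the genes that neighbour the 10. Expression data and the control library were not analysed here.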

Additional observations from a re-analysis of the deposited data

How the results depend on the processing

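The number of SOX11 peaks at the 10 genes, 33, fell to 18 when starts of genes of every biotype competed for a peak, to 13 with the gene body and 10 kb alone and to 19 in the first 50% of the list, and the number of SOX4 peaks, 3, fell to 1 with the gene body and 10 kb alone. By construction these settings admit fewer peaks. The share of SOX11 peaks with a SOX core, 78.8%, was 45.5% with the longer motif, against 47.3% of all SOX11 peaks. When the whole core had to lie within 50 bp of the centre it was 54.5%, against 45.7% of all SOX11 peaks. The share with an AP-1 core, 45.5%, was 66.7% with the longer motif, against 41.1% of all. The share with an E-box, 24.2%, was 6.06% within 50 bp of the centre, against 8.73% of all. The share over 100 kb from a protein-coding start, 39.4%, was 13.6% without the peaks of *Zeb2*, which made up 10 of the 13. Searching less sequence finds fewer copies, and the cause of the other shifts was not tested. The other 26 alternatives for these results stayed within 1.5 times the count or within the interval of the share, among them the other 7 without the peaks of *Zeb2*. Leaving these out was chosen after seeing the data. For single genes 97 alternative counts stayed within 1.5 times and 23 did not. At *Zeb2* the count was 1 rather than 11 both without the nearest start and with starts of every biotype. No paired analysis was possible because each list pools the replicates of its factor, and for the same reason no replicate was left out. With no heights and no depth, a site absent from the SOX4 list is not shown to be unbound.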

Other observations

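The order of the SOX11 list carries structure that bears on every list position given for the 10 genes. Split wherever the next entry steps back in the genome (chromosomes 1 to 19, then X), the list falls into 518 blocks within which positions ascend, from short ones at its start to longer ones that follow. Neighbouring entries lay on the same chromosome in 32.4% of pairs in the first eighth of the list and in 84.6% in the last, and blocks that began in the second part of the list, after its midpoint, held a median of 168.5 peaks. Peaks within 1 block stand in genomic order, so their list positions do not rank them against each other. The *Snai2* peak, in block 36, shared its block with 1 other peak, and the *Cdh1* peak that overlaps SOX4 stood in block 295, the *Twist1* peak that overlaps SOX4 in block 351 and the *Vim* peak in block 405. The *Zeb1* peak and the *Cdh2* peak in intron 2 were neighbours in the list and in the same block, 473, and so were the *Twist1* peaks at 23.9 and 119 kb, in block 500. What value orders the blocks is not given in the sources used here.

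For each of the 10 genes, the closest SOX4 peak left out by the rule lay between 66.5 and 3301 kb from the gene body and nearer to another start. A SOX11 peak from 14885690 to 14885947 on chromosome 16 and a SOX4 peak that overlapped it, from 14885580 to 14885919, stood 176 kb past the end of *Snai2*, nearer to the start of *Efcab1*. At *Prrx1* the nearest SOX4 peak, from 165310183 to 165310522, was 66.5 kb from the gene and nearer to the start of *Gorab*. At *Cdh2* the nearest SOX4 peak was 3301 kb away, near *Dsc1*, and at *Vim* it was 1473 kb away.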
